A study of Canis lupus familiaris with 6 samples.

Results

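The IFIT and IFI antiviral effector genes are genes that interferons switch on and whose products act on viral RNA and viral growth inside the cell. They were read here from single-colour Agilent canine arrays as every non-control probe whose gene name in the array design was IFIT1, IFIT2, IFIT3, IFIT5, IFI44, IFI44L, IFI35, IFI6, RSAD2 or CMPK2. The rule found 11 of 43603 probes, which covered 9 of the 10 genes, since no probe carried IFI44 as its gene name. The genes were chosen on the measured change between the cultures, with results of these arrays already known. Their values in that comparison are therefore a description, and no p is given for them.

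The samples were of MDCK, an established epithelial line from dog kidney. All carried mCherry-β-catenin Δ131, a stabilised β-catenin without its N-terminus made at all times from an EF1 vector, together with GFP-RasV12, an active Ras made only under tetracycline. Single culture (3 arrays) held these β-cat ΔN/RasV12 cells alone, and mix culture (3 arrays) held them among 10 surrounding β-cat ΔN cells for each of them. Both were grown on collagen-coated dishes with tetracycline for 24 h and sorted for GFP. Both groups thus carried both introduced genes and had the same treatment. What differed was the neighbours, and the RNA was that of the GFP-positive cells and of any cell that passed the sort with them. The labels do not say whether replicates came from separate cultures, so p-values measure the spread between these samples, which may be technical. In bulk RNA of this kind, fewer cells that express a gene and less RNA per cell cannot be told apart.

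Interferons bind receptors at the cell surface and act through the kinases JAK1 and TYK2 and factors such as STAT2 and IRF9, which act at the promoters of these genes. Several of the genes are also driven directly by IRF3 after RNA sensors such as RIG-I have met viral RNA. Epithelial cells express them at low levels at rest and raise them strongly on virus or interferon.

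Replicate 1 of each group lay on slide 1 (2 arrays) and the other 4 arrays lay on slide 2. The share of spots well above background was 61.1% to 65.65%, and every member probe was well above it on all 6 arrays. Each member probe had 1 spot per array, so its technical spread within an array is not known. Markers of epithelium, listed for kidney tubule, were present: 7 of 8 had a probe and all 7 were above background on all 6 arrays. Their summed signal was 114000 to 144000 in single culture and 104000 to 119000 in mix culture, mostly from KRT18 and KRT19. CDH16 of this list was dim, at 59.2 to 287 units. PTPRC and LYZ of the leukocyte list and COL3A1 and DCN of the fibroblast list were above background on 0 arrays. The summed signal of 7 leukocyte markers was 264 to 385 in single culture and 259 to 393 in mix culture, that of 6 fibroblast markers was 136 to 372 and 122 to 340, and that of 4 endothelial markers was 917 to 2890 and 843 to 3350. Of the 17 tested markers, limma called 0 between the cultures at an adjusted p under 0.05, and 1 had an unadjusted p under 0.05. The methods' test, the unpaired t-test named in the study's methods, called 0. With the slide as a block 1 was called, against 7.22% of all probes. It was CDH1, with a log2 change of -0.47 (SE 0.15 without the block) in mix culture. Of the 17, 1 was higher in mix culture, and all 7 epithelial markers were lower, with a median log2 change of -0.14. The part of other cell types in the results was not tested beyond these values.

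Each value below comes from 1 stretch of 60 bases. The probes of the IFIT genes and of the gene pair RSAD2 and CMPK2 are shown because the results turn on them and because related genes could share a stretch. They are written 5′ to 3′ as in the design, with capitals for the whole codons of the only reading frame that holds no stop codon. Positions are on CanFam3.1.
IFIT1, chr4:132014-132073, forward strand: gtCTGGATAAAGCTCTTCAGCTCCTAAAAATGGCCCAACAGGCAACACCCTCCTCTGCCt
IFIT2, chr4:69559-69618, forward strand: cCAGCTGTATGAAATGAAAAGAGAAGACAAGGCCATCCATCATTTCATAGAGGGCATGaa
IFIT3, chr4:104258-104317, forward strand: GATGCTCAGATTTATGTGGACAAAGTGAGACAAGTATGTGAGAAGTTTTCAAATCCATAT
IFIT5, chr28:4328128-4328187, forward strand: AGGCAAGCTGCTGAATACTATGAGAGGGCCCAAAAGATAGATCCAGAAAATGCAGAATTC
RSAD2, chr17:4499251-4499310, forward strand: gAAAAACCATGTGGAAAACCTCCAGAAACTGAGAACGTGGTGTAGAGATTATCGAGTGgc
CMPK2, chr17:4468301-4469938, reverse strand: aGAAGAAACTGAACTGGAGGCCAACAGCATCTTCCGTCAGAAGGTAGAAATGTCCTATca

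IFIT1, IFIT2 and IFIT3 lay close together on chromosome 4, IFIT5 lay on chromosome 28, and RSAD2 and CMPK2 lay on opposite strands of chromosome 17. The CMPK2 probe spanned 1638 bases of the genome for its 60 bases. The probes of IFIT genes shared no run of 8 bases with each other. The longest run shared by any pair of the probes described here, named or described as a member, was 14 bases. It joined 1 probe of IFI44L to 1 probe that the design describes as IFI44, a related gene beside it on chromosome 6, and is in capitals in the next lines.
IFI44L, dimmest probe: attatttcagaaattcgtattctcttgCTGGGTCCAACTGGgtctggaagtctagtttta
IFI44, described: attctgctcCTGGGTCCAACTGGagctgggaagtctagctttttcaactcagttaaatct
The same probes also shared a second, shorter run, left in small letters. In any other pair the longest run was 9 bases, between RSAD2 and CMPK2. Whether a transcript bound the probe of another gene was not tested.

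Over the 11 member probes, the normalised log2 signal (0 at each array's 75th percentile) was higher in mix culture by a median of 2.39, or 5.23-fold, with a range of 0.62 to 3.91. The median over all 26621 probes tested was -0.05. limma called 8 of the 11 probes, and 6 of the 9 genes, as higher, where it called 0.804% of all probes higher. The groups did not overlap for 10 of the 11 probes, against 7.84% of all probes with mix culture above. Within replicate numbers, mix culture was the higher in 33 of 33 pairs of arrays. These counts follow from how the genes were chosen and are given to show their level. With the slide as a block, 11 of 11 were called, against 4.0% of all probes called higher. With the methods' test, 0 of 11 were called, against 0.0301% of all probes. Without a block, leaving out mix culture replicate 3 left 3 calls, and leaving out single culture replicate 3 left 4. With normexp, another background correction, here with an offset of 50 units added to each signal, 6 were called. The offset was larger than every single culture signal of IFIT1, IFIT2, IFIT3 and RSAD2. This setting, which changed more than the background, gave lower changes for all 9 genes. The changes were 1.86 for IFIT1, 1.06 for IFIT2, 0.61 for IFIT3, 0.28 for IFIT5 and 1.26 for RSAD2. Those of CMPK2, IFI35 and IFI6 were 2.0, 2.03 and 1.37. IFI44L was thus the highest at 2.67, and IFIT3 and IFI6 lost their calls.

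**Figure D1:**
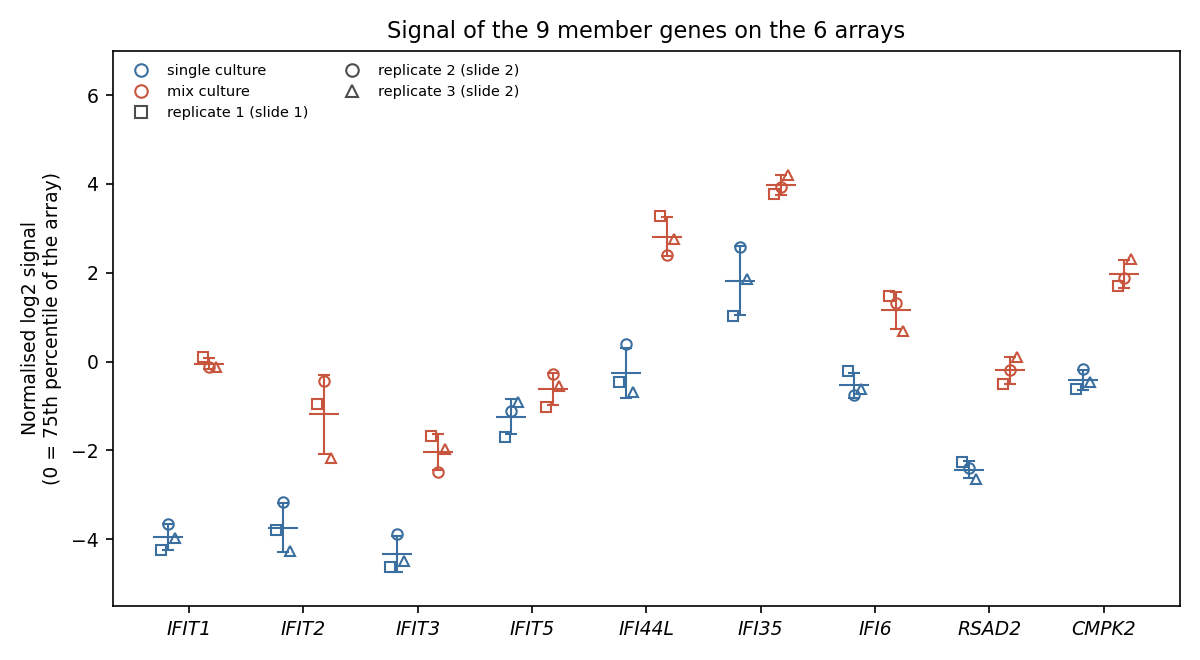
Normalised log2 signal (y axis, 0 at the 75th percentile of the array) of the 9 member genes, 1 probe each, on 3 single culture arrays (blue) and 3 mix culture arrays (red); symbols mark the replicate number, long bars the mean and whiskers the SD. The colours are apart for every gene but IFIT5, and the mix culture points of IFIT2 spread from -2.17 to -0.44.

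The IFIT proteins are repeat proteins that bind foreign RNA. IFIT1 recognises RNA caps that lack the methyl marks of host messages and blocks their translation. Its signal was 10.9, 13.1 and 11 intensity units on single culture replicates 1, 2 and 3, and 251, 165 and 148 on mix culture replicates 1, 2 and 3. The mix culture arrays were all far above the single culture arrays. Its normalised mean was -3.96 ± 0.29 alone and -0.05 ± 0.13 in the mix (SD over 3 arrays, as for each ± here), a log2 change of 3.91 (SE 0.19) or 15.1-fold, the highest among the members except with normexp. The change was 4.35 on slide 1 and 3.70 on slide 2, and the call was kept without any single array.

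IFIT2, which binds AU-rich RNA and can promote cell death, read 14.9, 18.6 and 8.93 units in single culture and 120, 133 and 35.7 in mix culture. The groups did not overlap, but mix culture replicate 3 lay far below the other mix culture arrays. The log2 change was 2.55 (SE 0.48), or 5.86-fold, from -3.74 ± 0.56 to -1.19 ± 0.89. It was not called without a block, although the change was larger than for the called RSAD2 probe, and it was called with the slide or the replicate number as a block. Replicate 3 was also the lowest of the single culture arrays. Mix culture replicates 2 and 3, which shared a slide, differed by 1.73 on the log2 scale, or 3.33-fold. Of all 26621 probes, 10 (0.0376%) differed that far between these arrays. IFIT1 and IFIT3 on the same arrays gave no such gap, since IFIT1 differed by less than its SE and IFIT3 was the higher on replicate 3.

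IFIT3, which binds IFIT1 and steadies its complex, read 8.24, 11.3 and 7.69 units in single culture and 73.3, 32.4 and 40.8 in mix culture. All mix culture arrays were above all single culture arrays, by at least 1.41 on the log2 scale. The log2 change was 2.30 (SE 0.28), or 4.91-fold, and it was 2.97 on slide 1 and 1.96 on slide 2. Besides normexp, the call was lost without single culture replicate 3 or mix culture replicate 3. A further probe that the design describes as showing homology to IFIT3, at chr4:105715-105774, read 285, 361 and 237 units in single culture and 2110, 1080 and 1250 in mix culture. It had the same order of arrays as the IFIT3 probe within mix culture, and its log2 change was 2.22 (SE 0.25).

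IFIT5, which binds RNA with a phosphate at its end, stood apart from the other IFIT genes. It read 63.9, 76.6 and 91.8 units in single culture and 115, 148 and 110 in mix culture. As raw signal the groups did not overlap, but after scaling they did, with single culture replicate 3 above mix culture replicate 1 by 0.11 on the log2 scale. The normalised signal was -1.24 ± 0.40 in single culture and -0.62 ± 0.37 in mix culture, a log2 change of 0.62 (SE 0.27) or 1.53-fold, and it was not called. The changes within replicate numbers were 0.67, 0.83 and 0.35. With the slide or the replicate number as a block it was called.

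IFI44 and IFI44L are related proteins of the cytoplasm that rise with interferon and restrain some viruses. IFI44L had 3 probes, with log2 changes of 3.07, 3.1 and 3.16. The brightest, at chr6:68382324-68382383, read 148, 218 and 107 units in single culture and 2240, 951 and 1090 in mix culture. Every mix culture array was above every single culture array, by at least 2.01 on the log2 scale, and the change of 3.07 (SE 0.34) was 8.39-fold. Mix culture replicate 1 was the highest on that probe, and single culture replicate 2 was the highest of its group on all 3 probes. The change was 3.74 on slide 1 and 2.73 on slide 2. All 3 probes were called, and each lost its call without mix culture replicate 3.

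The probes that the design describes as IFI44 carry transcript identifiers as gene names and so stand outside the rule. Of the 3, the one at chr6:68371201-68371260 read 56.0, 85.2 and 44.3 units in single culture and 516, 218 and 299 in mix culture. Its log2 change was 2.37 (SE 0.34), and that of the probe at chr6:68364970-68365029 was 2.29 (SE 0.33). The remaining one, at chr6:68383025-68383084, lay between probes of IFI44L. Its change of 3.02 (SE 0.36) was nearer to those of IFI44L than to those of the other IFI44 probes. All 3 gave groups that did not overlap, with the smallest change in the pair of replicate 2.

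IFI35, a leucine zipper protein that partners NMI, read 419, 1000 and 621 units in single culture and 3170, 2760 and 2970 in mix culture. The mix culture arrays lay close together, with an SD of 0.22, and the single culture arrays lay far apart, with an SD of 0.78. The change of 2.15 (SE 0.38), or 4.43-fold, left a gap of 1.17 between the groups but was not called. It was 2.74 on slide 1 and 1.85 on slide 2, and it was called with the slide or the replicate number as a block and without single culture replicate 2, the highest of its group.

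IFI6 encodes a small membrane protein that shields the endoplasmic reticulum from flaviviruses. Its signal was 176, 98.2 and 112 units in single culture and 644, 448 and 259 in mix culture. The groups did not overlap, with a gap of 0.91 on the log2 scale. The log2 change was 1.69 (SE 0.26), or 3.23-fold, and it was 1.69 on each slide. The call was the least stable of the members, since it was lost in 5 of the 6 fits that left out 1 array, all but that without single culture replicate 1.

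RSAD2 (viperin) and CMPK2 sit beside each other in the genome. CMPK2 makes CTP in mitochondria, and viperin turns CTP into a chain terminator of viral RNA synthesis. The RSAD2 probe read 42.8, 31.5 and 27.6 units in single culture and 165, 157 and 172 in mix culture. Its log2 change was 2.24 (SE 0.21), or 4.71-fold, from -2.44 ± 0.19 to -0.20 ± 0.30. The CMPK2 probe read 134, 149 and 125 units in single culture and 755, 668 and 806 in mix culture, a log2 change of 2.39 (SE 0.22) or 5.23-fold. For both genes the groups lay well apart, with gaps of 1.76 and 1.86, and the call was kept without any single array. A further probe that the design describes as CMPK2, at chr17:4466614-4466673, read 2030, 1280 and 1130 units in single culture and 9820, 5400 and 5510 in mix culture. Its log2 change of 2.14 (SE 0.22) differed from that of the first CMPK2 probe by less than the sum of their SEs.

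**Figure D2:**
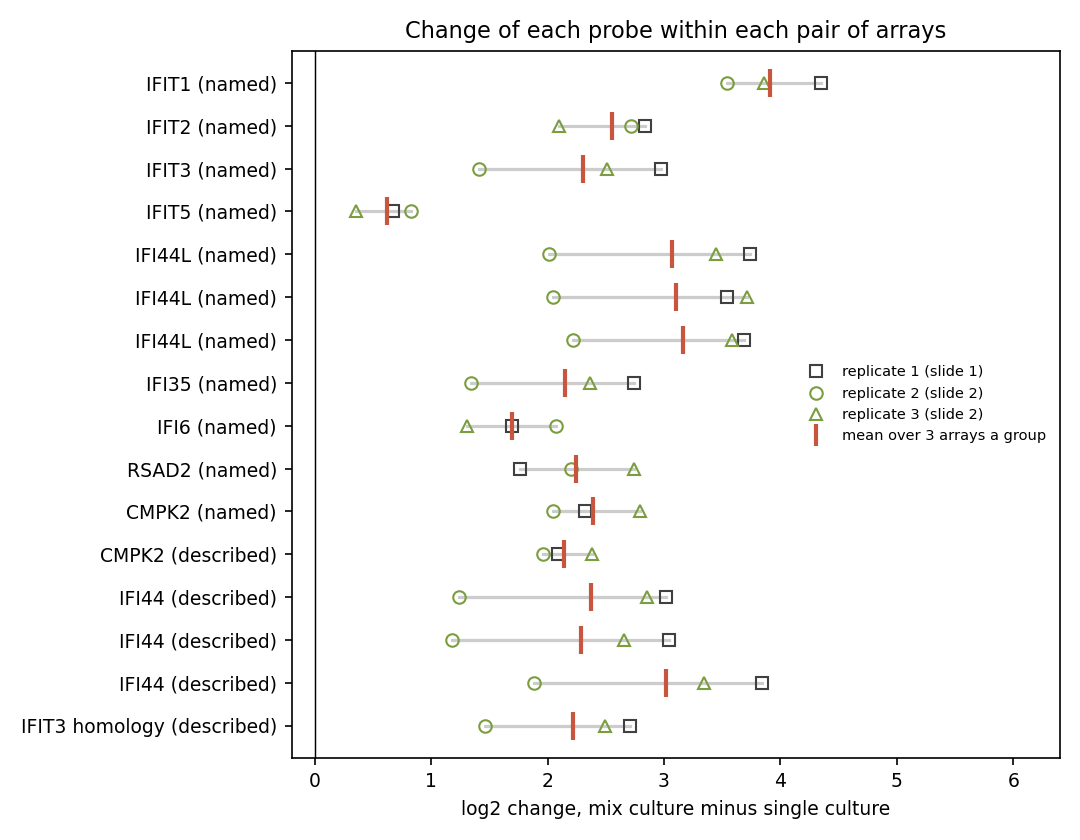
Log2 change of mix culture over single culture (x axis) for the 11 probes named as members and the 5 described as one, within each replicate number (symbols; black for slide 1, green for slide 2), with the change over 3 arrays a group as a red bar. Every point lies right of 0, and IFI44L, IFI44 and IFIT3 have their smallest change in replicate 2.

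The change was not the same in every pair of arrays. The replicate numbers 2 and 3 of mix culture are those of the scanner files, and the authors' table holds them the other way round, which would cross the pairs of slide 2 but leaves each group as it is. With the numbers of the scanner files, the pair of replicate 3 gave the larger change for IFIT1, IFIT3, IFI44L, IFI35, RSAD2 and CMPK2, and the pair of replicate 2 gave the larger change for IFIT2, IFIT5 and IFI6. For IFI44L the changes were 2.01 in replicate 2 and 3.45 in replicate 3, and for IFI6 they were 2.07 and 1.31. Single culture replicate 2 was the highest single culture array for 8 of 11 member probes (72.7%), against 31.2% of all probes, and it was above single culture replicate 3, on the same slide, for 9 of 11 (81.8%), against 50.8%. Mix culture replicate 2 was above mix culture replicate 3 for IFIT2, IFIT5 and IFI6 alone. The spread within a group was wider than usual: the median range of the 3 single culture arrays was 0.78 over member probes and 0.49 over all probes, and that of the mix culture arrays was 0.73 and 0.48. These shares are descriptions, since the members share arrays and were not drawn at random.

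The slide is balanced over the cultures, so its effect was not used to choose the genes. limma called 47.2% of all probes for a difference between slides with culture in the model, and 2 of the 11 member probes. IFIT5 was higher on slide 2 by 0.63 (SE 0.13, limma adjusted p = 0.00488). IFI35 was higher on slide 2 by 0.75 (SE 0.25, limma adjusted p = 0.0418). IFI6 was lower on slide 2 and just missed the threshold, at -0.47 (SE 0.17, limma adjusted p = 0.0540). The median size of the slide difference was 0.28 over member probes and 0.35 over all. For IFIT5 the slide difference was as large as the change between cultures, and for all other members the change between cultures was the larger.

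**Figure D3:**
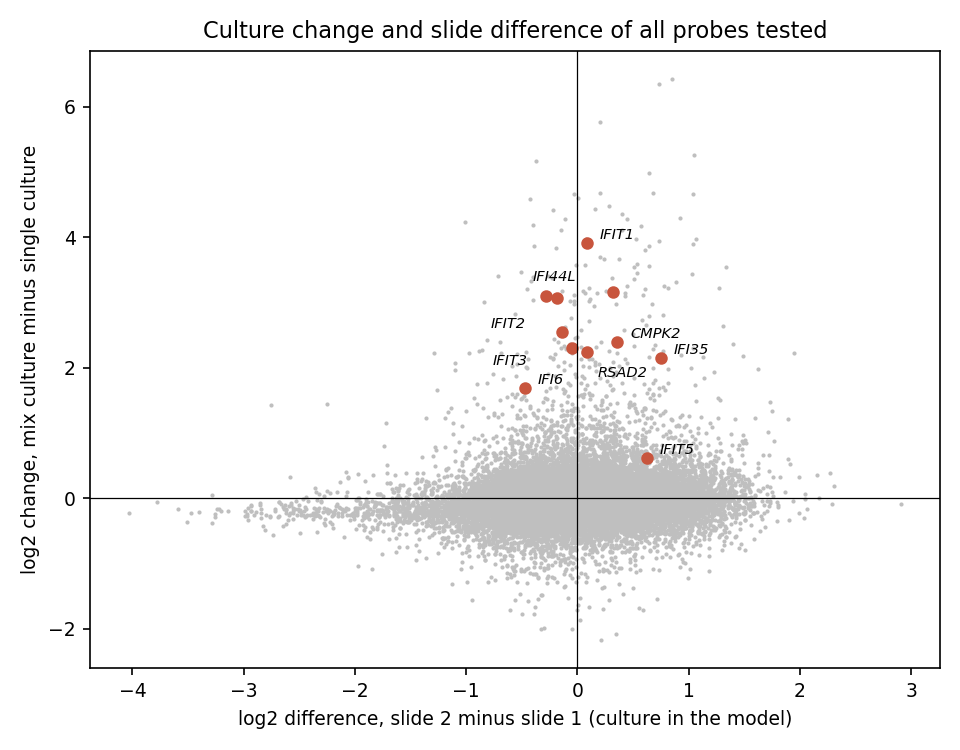
Log2 change between cultures (y axis) against the log2 difference between slides with culture in the model (x axis) for 26621 probes tested (grey) and the 11 member probes (red, each gene labelled once). IFIT1 lies highest among the members at 3.91, IFIT5 lies at 0.62 within the grey cloud, and IFIT5 and IFI35 lie farthest right.

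Whether the change between cultures itself differed between the slides was asked with an interaction term. It was called for 0 of 11 member probes, against 0.0376% of all probes. The change was larger on slide 1 for 8 of 11 member probes (72.7%), against 47.6% of all probes, with medians of 2.84 on slide 1 and 2.42 on slide 2. Before adjustment, 3 of 11 (27.3%) were under 0.05, against 9.15% of all. Those were IFIT1, with a change smaller on slide 2 by 0.65 (SE 0.25, limma adjusted p = 0.510), IFIT3, smaller by 1.02 (SE 0.41, limma adjusted p = 0.527), and RSAD2, larger on slide 2 by 0.71 (SE 0.27, limma adjusted p = 0.509). The spread in this model came from the 4 arrays of slide 2 alone, and the lone pair of slide 1 was assumed to vary alike.

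The members followed one another closely over the 6 arrays. The correlation of each gene with the mean of the other members was 0.996 for IFIT1, 0.979 for CMPK2, 0.978 for IFI44L, 0.973 for IFIT3, 0.962 for RSAD2, 0.941 for IFI35, 0.910 for IFI6, 0.907 for IFIT2 and 0.695 for IFIT5. Most of this is the step between the cultures that the genes were chosen for. Among 9605 other symbols, the 6 whose pattern was most like the mean of the members were TLR3 (0.9978), FAM13C (0.9967), WDFY3 (0.9966), USP18 (0.9962), C27H12orf35 (0.9948) and RNF213 (0.9936). TLR3 is an endosomal sensor of double-stranded RNA, USP18 removes ISG15 and damps interferon signalling, and RNF213 is a large ubiquitin ligase. Their sizes of change were unlike: 3.26 for RNF213 and 0.50 for WDFY3, which was not called.

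The genes near the members were read in the same way. For each member in a RefSeq gene table (UU_Cfam_GSD_1.0, used for names and order alone), the nearest genes with a tested probe were taken on each side, or after the gene alone for IFIT2 and IFIT3, 22 in all. limma called 0 of them, 3 had an unadjusted p under 0.05 and the methods' test called 0. With the slide block 3 were called, against 7.22% of all probes. Of the 22, 9 were higher in mix culture, and the median log2 change was -0.04. Up to 10 genes without a tested probe lay between a member and a gene taken. The lowest was SLC16A12 beside IFIT5, at -0.75, and the highest was DNAJB4 near IFI44L, at 0.80. The SLC16A12 probe was dim, with a normalised mean of -4.2 in single culture and -4.95 in mix culture. RPS7 and RNF144A, on either side of the pair of CMPK2 and RSAD2, read -0.30 and -0.65. VAT1 and RPL27, on either side of IFI35, read -0.19 and -0.17.

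**Figure D4:**
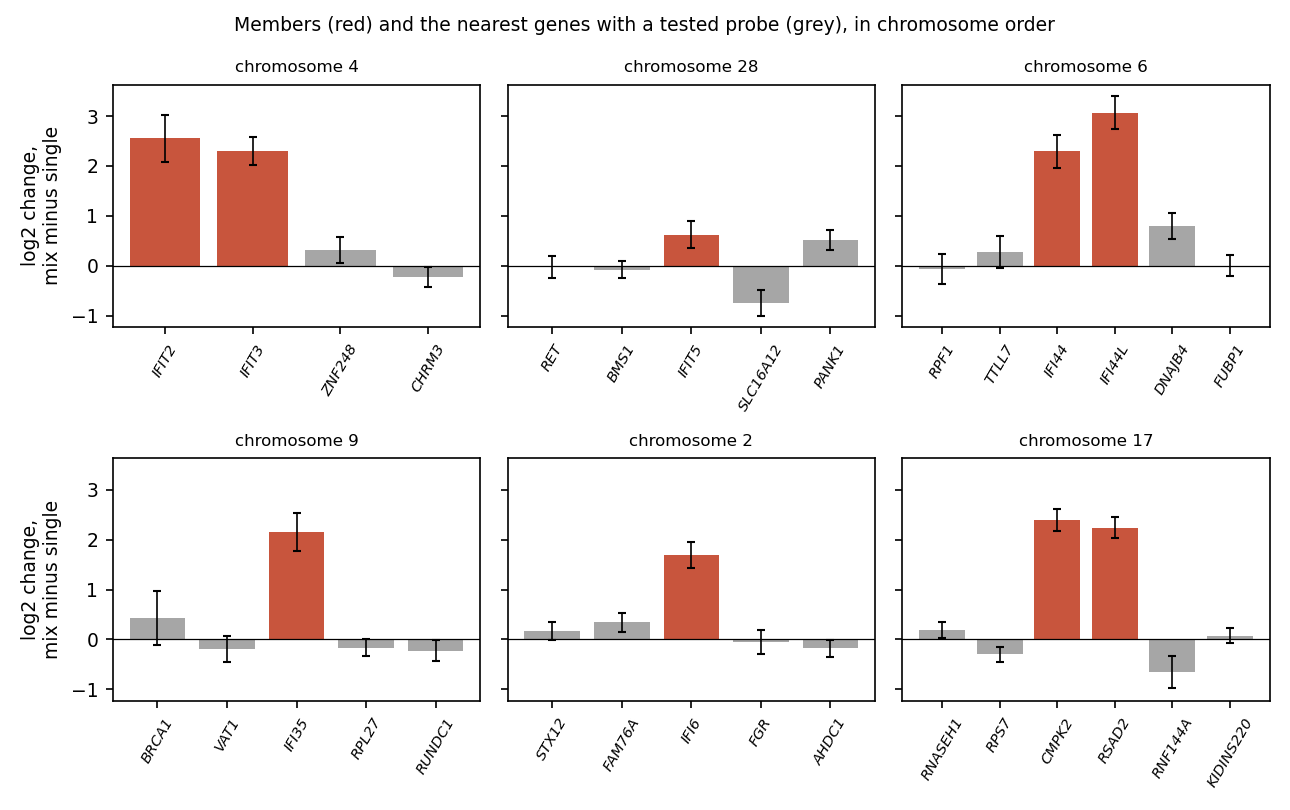
Log2 change of mix culture over single culture (bars, with SE as whiskers) for members (red) and for the nearest genes with a tested probe (grey), in the order of the RefSeq gene table along each chromosome. Grey bars lie between -0.75 and 0.80; IFI44 is drawn from its brightest described probe and IFIT1 is not in the table under that symbol.

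The rest of the interferon pathway was described by a list in order of role, 1 probe per gene. The list was written with earlier results of these data known, so its counts are a description. Of 41 genes, 27 had a probe under that name and 23 were tested. limma called 5 as higher, where it called 0.804% of all probes higher, and 0 as lower. The median log2 change of the 23 was 0.18. Of the ligands, IFNB1 and IFNG were well above background on 0 of 6 arrays. IFNK, the keratinocyte interferon, read 29.5, 35.5 and 32.5 units in single culture and 74.7, 50 and 58.4 in mix culture, a log2 change of 0.83 (SE 0.20). The groups did not overlap, and it was called with the slide or the replicate number as a block but not without. The tested receptors IFNLR1 and IFNGR1 read -0.57 and -0.02. Neither was called without a block, and IFNLR1 was called with the slide block.

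Of 9 tested kinases and transcription factors, limma called 0, 1 had an unadjusted p under 0.05, and the methods' test called 0. STAT2, a factor that interferon receptors activate, read 0.66 (SE 0.20) and was called with the slide or the replicate number as a block. IRF9, which binds DNA together with it, read -0.13 (SE 0.16) on the brighter of its 2 tested probes. That probe was very bright, at 52700 to 82900 units over the 6 arrays, and whether it is specific to IRF9 was not tested. JAK1 read -0.23 (SE 0.32) on the brightest of its 5 tested probes. IRF7, TYK2, IFNAR1 and IFNAR2 had no probe under those gene names. The calls lay in the role of RNA and DNA sensors with their adaptors, with 4 of 8 called, and in negative feedback, with USP18 alone of 3. In the former role MAVS, TICAM1, TBK1 and TMEM173 were tested and not called, and TBK1 was called with the slide block. DDX58 (RIG-I), which senses RNA ends and acts upstream of these effectors, read 202, 306 and 234 units in single culture and 1440, 1170 and 993 in mix culture, a log2 change of 2.22 (SE 0.24). IFIH1 (MDA5), which senses long double-stranded RNA, changed by 1.44 (SE 0.14), TLR3 by 1.26 (SE 0.15) and USP18 by 1.61 (SE 0.19). DHX58 (LGP2), which tunes RIG-I and MDA5, changed by 3.54 (SE 0.56) from a signal of 1.85 to 7.21 units alone to 35.7 to 57.2 in the mix, with all mix culture arrays but only 1 of the 3 single culture arrays well above background, so that it passed the filter through mix culture and its size is uncertain. When all 6 arrays had to be above background, 4 of 22 pathway genes were called. Without single culture replicate 3 or without mix culture replicate 3, 0 of these 5 genes kept the call.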

How the data were processed

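The authors deposited 1 scanner file per array, with spot intensity on a linear scale, and a table of log2 values of the same arrays. Per the file headers, the scanner software, Agilent Feature Extraction, removed background array by array (version 11.5.1.1 and a 3 µm scan on slide 1, 12.1.1.1 and 5 µm on slide 2) without scaling arrays to each other. The deposited log2 table is centred within each slide and served as an alternative only. Since it was fitted without a slide term, its p-values tend to be too small and its counts of calls too high. Its columns for mix culture replicates 2 and 3 each followed the other's scanner file (correlations of 0.998 and 0.992, against 0.352 with their own), so these replicate numbers may be crossed in one of the sources. Groups are unaffected.

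Control spots and outlier flags (5 to 9 spots per array) were dropped, and saturation affected 0 spots. Log2 of the processed signal, averaged over a probe's spots, was set relative to the array's 75th percentile. Testing required that all 3 arrays of a group be well above background, which gave 26621 of 43603 probes. limma 3.58.1 in R 4.3.3 (lmFit, eBayes, two-sided, Benjamini-Hochberg over all probes tested, adjusted p under 0.05) was used for culture, slide and their interaction, after a test of the code on simulated data. The unpaired design is that of the study. Alternatives were the slide or replicate block, the authors' table, normexp with an offset of 50 (from the mean spot signal on slide 1 and the median on slide 2), quantile normalisation, other filters, the methods' test and each array left out. Slide 2 alone was added after seeing the data.

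The members and lists were chosen with earlier results of these data known. Named were all member probes, the nearest 2 genes on each side with a tested probe, the 6 symbols of closest pattern, and the called pathway genes with IRF9 (1 further gene is not reported here). The uncalled pathway genes other than IRF9 were named after their values were seen. Pathway genes were read from their brightest probe. Same-numbered arrays deviated together from their group means (correlations of 0.801, 0.53 and 0.572 over probes), which met the rule for a paired fit. That fit is given as an alternative (the replicate block), and the values printed come from the fit without it. Different numbers on slide 2 deviated together somewhat more (0.61 and 0.632). The number of arrays limits the precision.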

Additional observations from a re-analysis of the deposited data

How the results depend on the processing

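Of 136 alternative values of the 9 member genes' changes, 107 kept their side of the threshold, 18 lost the call and 11 gained it. The sign changed in 0, which says little. The blocks, the methods' test and the filters leave the change itself as it is. Where the groups did not overlap, leaving out arrays could not turn the sign either, and the genes were chosen on this change. For the member probes called between cultures (8 without a block), the methods' test gave 0 and fits without 1 array gave 3 to 8. The replicate block, which pairs arrays by number, gave 11, as did the slide block and the authors' table. normexp gave 6, no filter 7 and slide 2 alone, chosen after seeing the data, 9. For the pathway genes (5), the slide block gave 9, the authors' values 9, the replicate block 7, the methods' test 1, normexp 2 and fits without 1 array 0 to 5. For the slide (2), normexp gave 4, no filter 1 and fits without 1 array 1 to 4. The interaction gave 0 under every setting, and could not be fitted without replicate 1 of either group. Over all probes, the count of 232 called between cultures became 1923 with the slide block, 1411 with the replicate block, 4077 with the authors' table, 8 with the methods' test, 97 with normexp, 143 with probes above background on all 6 arrays, 985 on slide 2 alone and 86 to 244 without 1 array.

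Among uncalled pathway genes, JAK1 ranged from -0.49 to 0.06 and IFNGR1 from -0.07 to 0.05 without 1 array. The normexp setting changed the background method, the offset and, between slides, the spot statistic at once, and which of these lowered the changes was not tested. The dimmest single culture signals, of IFIT3, were 7.69 to 11.3 units, where the lowest signal called above background was 4.19 to 4.48.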
